A study of Mus musculus with 6 samples.

Results

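Expression of a run of neighbouring genes on mouse chromosome 10, from Parpbp and Nup37 to Btg1 with the apoptosome gene Apaf1 near its middle, was examined in skeletal muscle of transgenic and wild-type mice. The members were 45 named genes, of which 44 had a probe set with a single gene symbol on the platform, giving 45 of the 35557 probe sets in the table. Snrpf had no such probe set and is given no value, and Ube2n was the 1 gene with 2 probe sets. The segment was chosen because neighbouring genes there differed between transgenic and wild-type arrays in these same data. The differences between the groups are therefore given as a description without a test, and nothing is supported with them. Symbols of the members were placed in order with the mouse reference table of assembly GRCm38.p6, in which Gm6653 lies beside Parpbp at the start of the segment and Cdk17 comes before Elk3.

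The study, on the cytokine signalling inhibitor SOCS-3, used Affymetrix MoGene arrays with RNA from frozen muscle of 6 mice. Its groups are transgenic (TG) and wild type (WT), with 3 arrays in each, and every array has its own subject label. The sources used here do not give the strain, age or sex of the mice, the muscle taken, the content of the transgene, the promoter that drives it or its site of insertion. Values are log2 expression as deposited, so a difference of 1 is a doubling, and differences are TG minus WT with a 95% interval from a limma fit over every probe set. Muscle fibre transcripts were abundant on every array (all 15 skeletal muscle markers measured, mean log2 value 13.89 to 13.96), which fits the labelled tissue. In whole muscle, fewer cells of a type and less RNA per cell cannot be told apart. Probe sets differ in how well they hybridise, so levels are compared between arrays and not between genes.

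The segment holds genes of unrelated function. Apaf1 binds cytochrome c released from mitochondria and assembles the apoptosome, the platform that activates caspase-9. Slc25a3 encodes the carrier that brings phosphate into the mitochondrial matrix for ATP synthesis, and Mybpc1 encodes the slow form of myosin-binding protein C in the sarcomere. Other members act in phospholipid synthesis (Chpt1), lysosomal enzyme sorting (Gnptab), ribosome assembly (Utp20), bile acid sensing (Nr1h4) and histidine breakdown (Hal and Amdhd1). Genes that lie next to each other can share a promoter region when they start head to head and are transcribed in opposite directions.

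Pairs of this kind are shown so that the differences of neighbours starting from the same stretch of DNA can be set side by side. Their levels are not compared with each other. Of the 44 genes, 40 had a promoter window in the RefSeq table (GRCm38.p6, 250 bases before the start and 50 after it), and 3 pairs of members had overlapping windows on opposite strands. The stretch between the nearest starts of each pair is printed below on the plus strand of GRCm38.p6, 5′ to 3′, with capitals at matches to the GC box GGGCGG or the CCAAT box CCAAT on either strand. The stretch between Parpbp, to the left, and Nup37, to the right, is chr10:88146942-88146991, that between Apaf1 and Ikbip is chr10:91082744-91083038, and that between Vezt and Fgd6 is chr10:94035800-94036000.
Parpbp and Nup37: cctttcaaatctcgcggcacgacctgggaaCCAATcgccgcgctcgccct
Apaf1 and Ikbip: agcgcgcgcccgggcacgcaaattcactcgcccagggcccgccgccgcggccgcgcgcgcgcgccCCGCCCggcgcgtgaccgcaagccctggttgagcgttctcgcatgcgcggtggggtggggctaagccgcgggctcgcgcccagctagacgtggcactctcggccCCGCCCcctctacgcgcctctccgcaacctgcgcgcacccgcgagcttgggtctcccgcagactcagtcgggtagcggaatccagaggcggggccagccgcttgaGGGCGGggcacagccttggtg
Vezt and Fgd6: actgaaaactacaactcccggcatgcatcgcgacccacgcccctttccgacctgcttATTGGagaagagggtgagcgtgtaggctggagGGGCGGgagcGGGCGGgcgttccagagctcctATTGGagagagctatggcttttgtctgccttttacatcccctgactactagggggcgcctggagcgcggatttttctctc
The stretch between Apaf1 and Ikbip has 295 bases, 45 CpG dinucleotides, 75.6% G or C and 3 GC boxes, with no CCAAT box. The stretch between Parpbp and Nup37 has 50 bases with 7 CpG and 1 CCAAT box, and that between Vezt and Fgd6 has 201 bases with 13 CpG, 2 GC boxes and 2 CCAAT boxes. None of the 3 stretches holds a TATA box (TATAAA).

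Apaf1 and Ikbip, which start from the same stretch, differed in opposite directions. Apaf1 was measured at 7.54, 7.43 and 7.21 on the 3 TG arrays and at 6.47, 6.53 and 6.17 on the 3 WT arrays. Every TG array lay above every WT array, and the difference of 1.01 (95% interval 0.68 to 1.33), a 2.01-fold higher level in TG, was the largest of the members. Ikbip, which encodes an endoplasmic reticulum protein that interacts with the IkappaB kinase, was measured at 5.60, 5.99 and 5.79 in TG and at 6.20, 6.14 and 6.27 in WT. Here every TG array lay below every WT array, with a difference of -0.41 (-0.68 to -0.14).

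**Figure D1:**
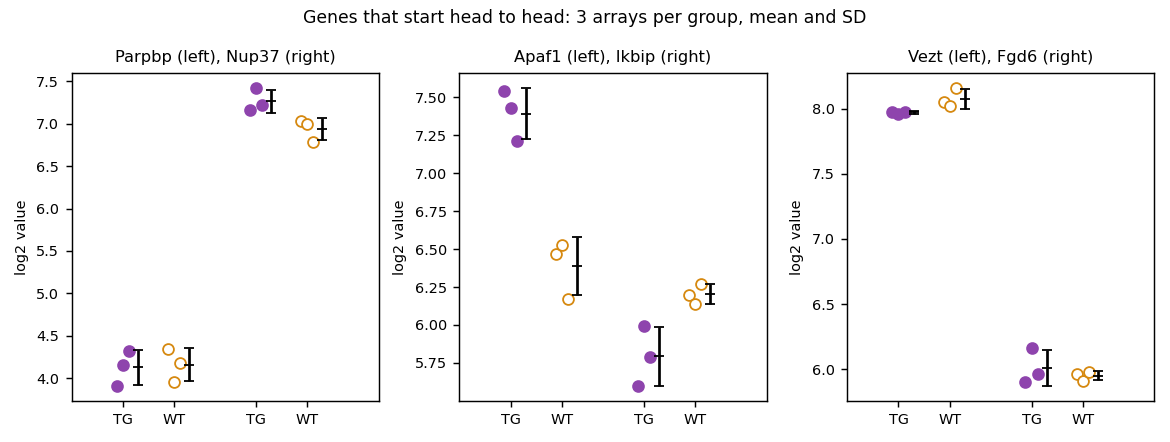
Log2 values (vertical axis) of the 3 pairs of members that start head to head, with 1 point per array for TG (filled) and WT (open) and the mean ± SD of 3 arrays beside them. Apaf1 was higher and Ikbip lower in TG, while in each of the other pairs the groups of 1 gene overlapped and those of the other did not.

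In the other pairs 1 partner differed without overlap. Nup37, a subunit of the Y complex of the nuclear pore, stood at 7.16, 7.42 and 7.22 in TG and at 7.03, 7.00 and 6.79 in WT, a difference of 0.33 (0.07 to 0.59). Its partner Parpbp, which encodes a PARP1-binding protein that restrains homologous recombination, stood at 3.91 to 4.32 in TG and 3.96 to 4.34 in WT, with overlapping arrays and a difference of -0.03 (-0.38 to 0.32). Vezt, which encodes a protein of cell adherens junctions, was 7.98, 7.96 and 7.98 in TG and 8.05, 8.02 and 8.16 in WT. Its groups did not overlap, but the difference was small, -0.10 (-0.26 to 0.06), and was -0.06 without WT array 3. Fgd6, a guanine nucleotide exchange factor gene for Cdc42, overlapped between the groups, at 5.90 to 6.16 in TG and 5.91 to 5.98 in WT. The levels of Parpbp and Fgd6 were not above the median of all probe sets, and signal over background is unknown.

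Across the segment, 12 of the 45 member probe sets had all 3 TG arrays above all 3 WT arrays, against 5.04% of all probe sets on the array, and 8 had all TG arrays below all WT arrays, against 6.76%. Of all probe sets without overlap, 42.7% were higher in TG, and 55.5% were with arrays set to a common median. Because the segment was picked from this contrast, its excess over the background is how it was found and is not read further. The median difference over the members was 0.012, beside -0.009 over all probe sets. It was 0.059 over the members above the median level (12 higher and 4 lower without overlap). The shares and the median over all probe sets above that level are not given, so these values have no background beside them. Gm6653, Spic, Ano4 and Usp44, also lower without overlap, were not above that level. With TG array 1 or 2 left out the median difference over the members was 0.024 or 0.002, and with WT array 1 or 2 left out it was 0.031 or 0.035. The median size of a difference regardless of sign was 0.122 for the members beside 0.0877 over all probe sets. No probe set on the array passed an adjusted p of 0.05 (limma, smallest adjusted p = 0.547, 2105 probe sets at an unadjusted p under 0.05), and the share called is 0%.

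**Figure D2:**
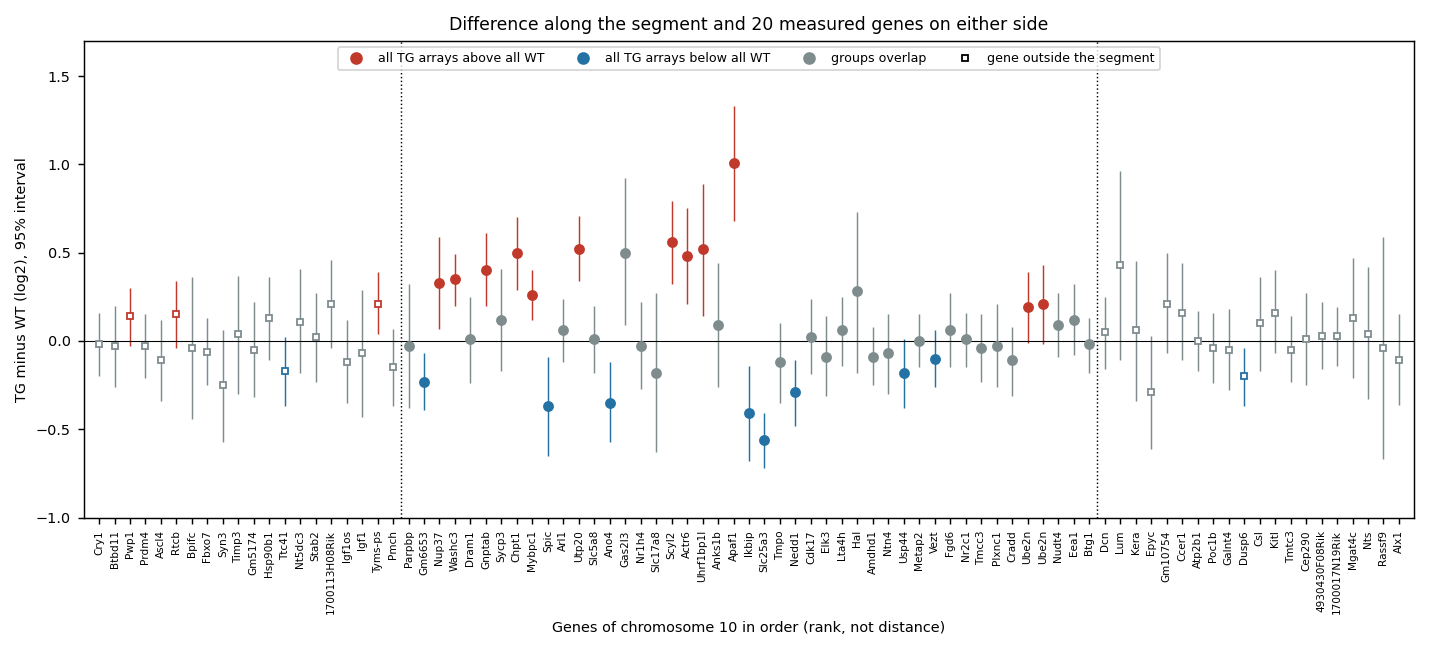
Difference TG minus WT on the log2 scale with its 95% interval (vertical axis) for the 45 member probe sets (circles, between the dotted lines) and for 20 measured genes on either side (squares), in gene order. Colours mark probe sets whose TG arrays all lie above (red) or below (blue) the WT arrays, and most of the last 15 members, from Amdhd1 to Btg1, lie close to 0.

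The differences were uneven along the segment. In gene order, the first 15 probe sets (Parpbp to Gas2l3) had 6 higher and 3 lower without overlap, the next 15 (Nr1h4 to Hal) had 4 higher and 3 lower, and the last 15 (Amdhd1 to Btg1) had 2 higher and 2 lower, both higher ones being Ube2n. The median size of a difference regardless of sign was 0.327, 0.275 and 0.0859 in these 3 runs, and 10, 8 and 1 probe sets exceeded 0.2 in either direction. Over the whole table, 19.7% of probe sets exceeded 0.2, and 5.04% were higher and 6.76% lower without overlap. Just inside the ends, Parpbp was at -0.03 and Btg1 at -0.02, and just outside them, Pmch was at -0.15 and Dcn at 0.05. Of the 20 measured genes before the first member, 3 were higher (Pwp1, Rtcb and Tyms-ps, at 0.14, 0.15 and 0.21) and 1 lower (Ttc41, at -0.17) without overlap. Of the 20 after the last member, 0 were higher and 1 was lower (Dusp6, at -0.20).

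In the first run of members, Nup37, Washc3, Gnptab, Chpt1, Mybpc1 and Utp20 had higher values on every TG array than on any WT array. Washc3, a subunit of the WASH complex that drives actin assembly on endosomes, was 8.08, 8.12 and 8.13 in TG and 7.80, 7.72 and 7.77 in WT. The arrays of each group lay within 0.1 of one another, and the difference was 0.35 (0.20 to 0.49). Gnptab, which encodes the phosphotransferase that starts the mannose 6-phosphate tag on lysosomal enzymes, was 8.15, 7.93 and 8.04 in TG and 7.73, 7.59 and 7.60 in WT, a difference of 0.40 (0.20 to 0.61). Chpt1, the enzyme of the last step of phosphatidylcholine synthesis from CDP-choline, was 11.32, 11.17 and 11.08 in TG and 10.73, 10.64 and 10.71 in WT. Every TG array exceeded every WT array for both genes, and Chpt1 differed by 0.50 (0.29 to 0.70), or 1.41-fold.

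Mybpc1, the sarcomeric member of the segment, was the most even of the higher genes. Its values were 13.34, 13.32 and 13.34 in TG and 13.06, 13.06 and 13.11 in WT, a difference of 0.26 (0.12 to 0.40), or 1.20-fold, with an SD of 0.01 and 0.03 in the groups. Utp20, a large scaffold protein gene of the small-subunit processome that builds ribosomes, was 7.97, 8.16 and 8.08 in TG and 7.59, 7.57 and 7.49 in WT, a difference of 0.52 (0.34 to 0.71). Between these genes lies Spic, an Ets-family transcription factor gene known from red pulp macrophages, with 3.70, 3.74 and 3.79 in TG and 4.26, 3.87 and 4.20 in WT. Its TG arrays lay below all WT arrays, and the WT arrays were spread, giving a difference of -0.37 (-0.65 to -0.09). The level of Spic was below the median of all probe sets. The 15 macrophage markers measured had 11 values above 0 and 4 below, with a median difference of 0.082 and mean levels of 6.69 to 7.00 in TG and 6.57 to 6.91 in WT, and their part in the Spic difference was not tested.

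Gm6653, a predicted gene, was 5.30, 5.35 and 5.27 in TG and 5.50, 5.50 and 5.61 in WT, a difference of -0.23 (-0.39 to -0.07). Ano4, which encodes a member of the anoctamin family of membrane proteins, was 4.77, 4.55 and 4.84 in TG and 5.03, 5.09 and 5.07 in WT, a difference of -0.35 (-0.57 to -0.12). In both genes the TG arrays all lay lower, at levels below the median of all probe sets. Dram1, which encodes a p53-induced lysosomal protein of autophagy, overlapped at a difference of 0.01 (-0.24 to 0.25), as did Arl1, a GTPase gene of the trans-Golgi, at 0.06 (-0.12 to 0.24). Sycp3, of the synaptonemal complex in meiosis, was at 0.12 (-0.17 to 0.41), and Slc5a8, a sodium-coupled monocarboxylate transporter gene, at 0.01 (-0.18 to 0.20). Gas2l3, which links actin and microtubules in dividing cells, had 6.53, 6.70 and 6.17 in TG and 5.81, 5.88 and 6.20 in WT. Its difference of 0.50 (0.09 to 0.92) was as large as that of Chpt1, yet TG array 3 lay just below WT array 3, so it counts among the overlapping members.

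**Figure D3:**
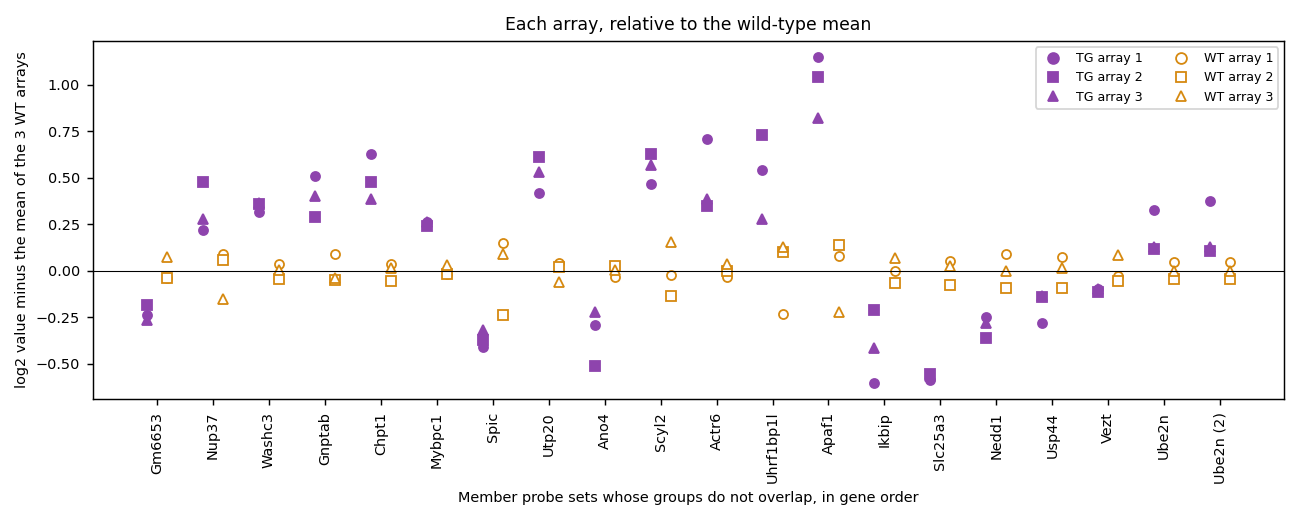
Log2 value of each array minus the mean of the 3 WT arrays (vertical axis) for the 20 member probe sets whose groups do not overlap, in gene order, with filled symbols for TG and open symbols for WT and 1 symbol shape per replicate number. Apaf1 stands highest, Slc25a3 is the lowest member by its mean, and the 2 Ube2n probe sets show nearly the same arrangement of arrays.

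Next to Apaf1 on its left, 3 neighbours in a row were higher in TG. Scyl2, a pseudokinase gene linked to clathrin-coated vesicles, was 9.06, 9.22 and 9.16 in TG and 8.57, 8.46 and 8.75 in WT, a difference of 0.56 (0.32 to 0.79). Actr6, an actin-related subunit gene of a chromatin remodelling complex, was 7.55, 7.19 and 7.23 in TG and 6.81, 6.84 and 6.88 in WT, a difference of 0.48 (0.21 to 0.75). In Actr6 the first TG array stood above the other two, and the WT arrays were close together. Uhrf1bp1l, which encodes a lipid transfer protein, was 8.40, 8.59 and 8.14 in TG and 7.63, 7.96 and 7.99 in WT, a difference of 0.52 (0.14 to 0.89). Anks1b, a large postsynaptic protein gene that separates these genes from Apaf1, overlapped between the groups at 0.09 (-0.26 to 0.44). Nr1h4, the bile acid receptor FXR, and Slc17a8, a vesicular glutamate transporter gene, overlapped as well, at -0.03 (-0.27 to 0.22) and -0.18 (-0.63 to 0.27).

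To the right of Apaf1 and Ikbip, values were lower in TG. Slc25a3 was 11.18, 11.21 and 11.20 in TG and 11.82, 11.69 and 11.79 in WT. The TG arrays lay within 0.1 of one another and all below the WT arrays, with a difference of -0.56 (-0.72 to -0.41), or 1.48-fold lower. Nedd1, which brings gamma-tubulin to centrosomes and spindles, was 8.01, 7.90 and 7.98 in TG and 8.35, 8.17 and 8.26 in WT, a difference of -0.29 (-0.48 to -0.11). Tmpo, the lamina-associated polypeptide gene between them, overlapped at -0.12 (-0.35 to 0.10). The order around Apaf1 was therefore 3 higher genes, Anks1b with overlap, Apaf1 higher, and then Ikbip and Slc25a3 lower.

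Beyond Nedd1 most members overlapped between the groups. Cdk17, a cyclin-dependent kinase gene, was at 0.02, Elk3, an Ets-family repressor gene, at -0.09, and Ntn4, a netrin of basement membranes, at -0.07. Metap2, which removes the first methionine from new proteins, had means of 11.37 ± 0.05 (TG) and 11.38 ± 0.02 (WT; SD over 3 arrays), and its interval of -0.15 to 0.15 leaves room only for small differences. Nr2c1, an orphan nuclear receptor gene, was at 0.01 (-0.15 to 0.16), Tmcc3, a gene for an endoplasmic reticulum protein, at -0.04 (-0.23 to 0.15), and Plxnc1, a semaphorin receptor gene, at -0.03 (-0.26 to 0.21). Cradd, an adaptor gene that links death domain proteins to caspase-2, was at -0.11 (-0.31 to 0.08). Nudt4, a diphosphoinositol polyphosphate phosphatase gene, was at 0.09, Eea1, the tether of early endosomes, at 0.12, and Btg1, an antiproliferative factor gene, at -0.02. For Cdk17, Elk3, Ntn4, Nudt4, Eea1 and Btg1 the intervals ran from -0.31 at the lowest to 0.32 at the highest.

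Usp44, a deubiquitinase gene of the mitotic checkpoint, and Ube2n were, with Vezt, the members of this stretch whose groups did not overlap. Usp44 was 4.26, 4.40 and 4.41 in TG and 4.62, 4.45 and 4.56 in WT, a difference of -0.18 (-0.38 to 0.01). Its level was below the median of all probe sets. Ube2n, the conjugating enzyme for K63-linked ubiquitin chains, was 8.94, 8.73 and 8.74 in TG and 8.66, 8.57 and 8.61 in WT on its first probe set, a difference of 0.19 (-0.01 to 0.39). The second probe set gave 8.93, 8.66 and 8.68 against 8.60, 8.51 and 8.55, a difference of 0.21 (-0.02 to 0.43). Both probe sets have their highest value on TG array 1, and without that array the difference was 0.12 in each. The 2 probe sets follow each other closely on all 6 arrays, and with 1 probe set per gene the count of higher members was 11. Placement was by gene identifier, so whether the second probe set targets this locus was not checked.

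The enzymes of histidine breakdown and of leukotriene synthesis lie together after Elk3. Lta4h, which makes leukotriene B4, overlapped at 0.06 (-0.14 to 0.25), and Amdhd1, of the histidine pathway, at -0.09 (-0.25 to 0.08). Hal, which encodes histidine ammonia-lyase, the first enzyme of that pathway in liver and skin, was 5.95, 6.16 and 5.62 in TG and 5.34, 5.72 and 5.84 in WT, with overlapping arrays and a difference of 0.28 (-0.18 to 0.73). Hepatocyte transcripts varied strongly between these muscle arrays: the 17 measured markers had a mean log2 level of 6.36, 7.62 and 5.60 on the TG arrays and 6.69, 7.25 and 7.26 on the WT arrays, all 17 had lower means in TG, and albumin (Alb) ranged from 6.29 to 10.67. With the mean of these markers as a covariate, the Hal difference was 0.44 (SE 0.12), while without the covariate it was 0.13 when WT array 1 was left out and 0.15 when TG array 2 was. With the covariate, that of Apaf1 was 1.04 (SE 0.15) and that of Slc25a3 was -0.57 (SE 0.08). TG array 1 also had the highest mean of the 10 bone and osteoclast markers measured, 6.51 against 5.68 to 6.08 on the other arrays. Between the groups, 8 of these markers had differences above 0 and 2 below, with a median of 0.202. Ctsk and Acp5 were higher in TG without overlap (against 5.04% of all probe sets) and 0 markers were lower. The part of such cells in the member differences was not tested. Without TG array 1 the differences were 0.93 for Apaf1 and -0.56 for Slc25a3.

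Inside the segment, 14 further probe sets of 12 genes belong to genes that are not among the members, and 0 of them were higher and 4 lower in TG without overlap. Over all probe sets, 5.04% were higher and 6.76% lower without overlap. Ndufa12, a subunit gene of respiratory complex I, was 10.88, 10.65 and 10.72 in TG and 10.92, 11.09 and 11.14 in WT, a difference of -0.30. Mir331, a microRNA gene measured here through a probe set of its locus, was 5.30, 5.25 and 5.29 in TG and 5.46, 5.71 and 5.59 in WT, a difference of -0.31. Socs2, a suppressor of growth hormone signalling that lies between Cradd and Ube2n, was lower without overlap on both of its probe sets. The first was 6.71, 6.95 and 6.64 in TG and 7.19, 7.27 and 6.99 in WT, a difference of -0.38. The second was 6.88, 6.88 and 6.63 in TG and 8.30, 7.74 and 7.79 in WT, a difference of -1.15. The size of the Socs2 difference thus depended on the probe set. Placement was by gene identifier, so whether the second probe set targets this locus was not checked. The other probe sets, of Gm4925, Mir135a-2, Cfap54, Ccdc38, 4933408J17Rik, Gm4792, Cep83, Mrpl42 and 4732465J04Rik, overlapped between the groups, with differences from -0.13 to 0.22.

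The DNA at the starts of the members was described by base composition and by short motifs, without a test. The 40 member promoters had a median of 24 CpG in 300 bases, beside 7.0 over the promoters of 27025 genes. The 10 promoters of higher genes had a median of 24.5, the 6 of lower genes 17 and the 24 of overlapping genes 24.5. A GC box (GGGCGG, either strand) was found in 25 of the 40 windows, or 62.5%, against 35.9% of all promoters, and it stood in 7 of 10 higher, 4 of 6 lower and 14 of 24 overlapping genes. The CCAAT box was found in 18, or 45%, against 37.9%, and the TATA box TATAAA in 3 (Hal, Cradd and Btg1), or 7.50%, against 14.2%. TTCNNNGAA, the spacing recognised by STAT factors, which SOCS proteins restrain, was found in 1 member window, that of Uhrf1bp1l, or 2.50%, against 8.47% of all promoters. These motifs can overlap one another, and a match is a description of letters, not a bound site. By strand, 6 of 19 probe sets transcribed from the plus strand were higher and 1 lower without overlap, and of 22 on the minus strand 5 were higher and 5 lower. Of all probe sets, 5.04% were higher and 6.76% lower without overlap. The 4 members without a promoter window, Scyl2, Nedd1, Cdk17 and Usp44, have no strand here.

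Genes that work with the members but lie outside the segment were tested in the fit over all probe sets. They were grouped in 15 lists of partners, which were chosen with earlier results of these data known. In all, 172 genes were measured. None passed an adjusted p of 0.05 (limma, smallest adjusted p = 0.728), and 9 had an unadjusted p under 0.05. Of the 172, 14 were higher and 7 lower without overlap, 12.2% in all against 11.8% of all probe sets, and the median difference was 0.012. Over the whole table, 16644 of 35557 probe sets had a difference above 0. The counts above 0 in each list below are a description without a test.

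**Figure D4:**
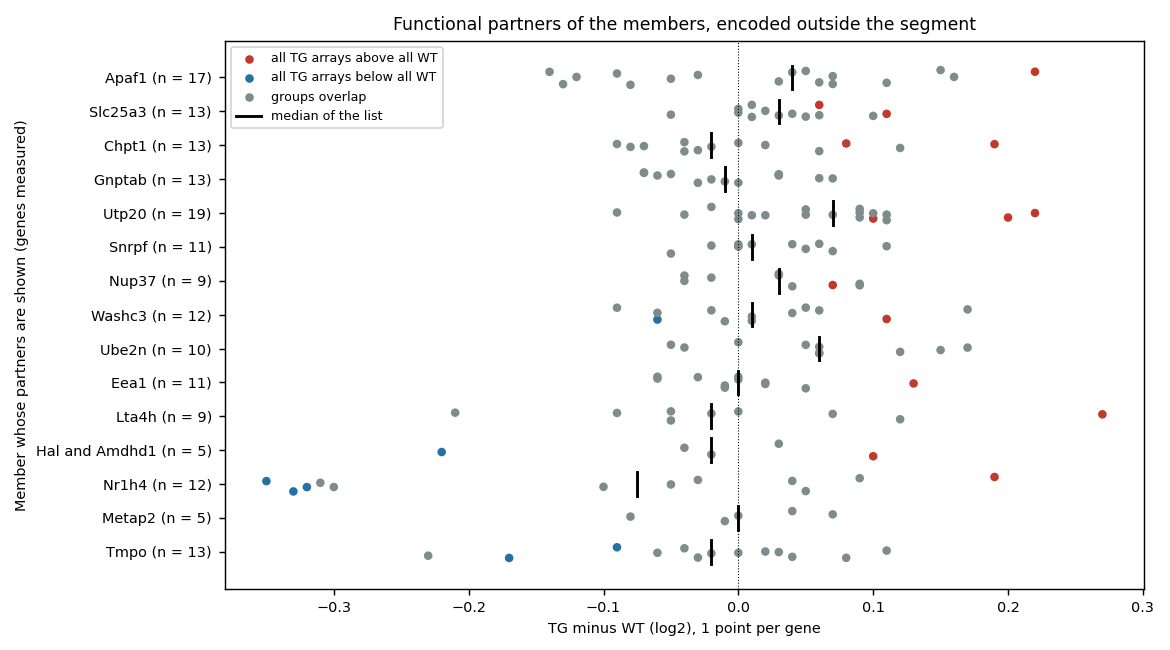
Difference TG minus WT on the log2 scale (horizontal axis) of each measured partner gene, 1 point per gene, in the 15 lists named by their member, with a bar at the median of the list. Nearly all points lie between -0.3 and 0.3, and the list of bile acid receptor targets holds the lowest.

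Among partners of Apaf1, the mitochondrial death pathway, 10 of 17 genes had values above 0 and 7 below, with a median of 0.036. Birc2, an inhibitor of apoptosis, was 8.17, 8.16 and 8.14 in TG and 8.05, 7.88 and 7.88 in WT, a difference of 0.22 (limma, adjusted p = 0.814), and the mitochondrial protease gene Htra2 was at 0.15 (adjusted p = 0.861). Casp9, the caspase that the apoptosome activates, was at 0.11 (-0.09 to 0.31), and Cycs, its cytochrome c, at 0.04 (-0.16 to 0.23).

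Partners of Slc25a3, the adenine nucleotide carriers, porins and ATP synthase subunits, had 11 of 13 values above 0 with a median of 0.030. Ppif, the cyclophilin of the mitochondrial pore, was at 0.11 and Slc25a5, an adenine nucleotide carrier gene, at 0.10 (limma, adjusted p = 0.863 and 0.879). Partners of Utp20 in the processome had 14 of 19 values above 0 with a median of 0.066. Of the 19, 3 were higher without overlap, against 5.04% of all probe sets. Nop58 and Utp15 had the smallest p, at 0.20 and 0.22 (limma, adjusted p = 0.814 and 0.825). Phospholipid synthesis partners of Chpt1 had 5 of 13 above 0 with a median of -0.017, led by Selenoi, an ethanolamine phosphotransferase gene, at 0.19 and the choline transporter gene Slc44a1 at 0.12. Partners of Gnptab in mannose 6-phosphate sorting had 5 of 13 above 0 with a median of -0.014, and the adaptor genes Gga2 and Gga3 stood at 0.07 and -0.07.

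Targets and partners of the bile acid receptor gene Nr1h4 had 8 of 12 values below 0 with a median of -0.070, 1 gene higher and 3 lower without overlap. Of all probe sets, 5.04% were higher and 6.76% lower without overlap. Cyp8b1, a bile acid synthesis enzyme gene, was 5.03, 5.0 and 4.94 in TG and 5.23, 5.40 and 5.39 in WT, a difference of -0.35 (limma, adjusted p = 0.728). Slc51a, a bile acid transporter gene, was at -0.32 (limma, adjusted p = 0.799), with means of 4.54 in TG and 4.85 in WT. Both genes lay below the array medians of 5.98 to 6.04, and signal over background is unknown. Several of these genes are best known from liver, and the hepatocyte markers given above also had lower means in TG, a part in the result that was not tested. The histidine pathway had 2 of 5 above 0, median -0.020, with Ftcd at -0.22 and Mthfd1 at 0.10 (limma, adjusted p = 0.831 and 0.866).

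The remaining lists had medians between -0.018 and 0.059. Partners of Ube2n had 7 of 10 above 0 (median 0.059), with Traf6 at 0.12 and Cyld at 0.17. Those of Nup37 in the nuclear pore had 6 of 9 above 0 (median 0.035), with Nup133 at 0.09 and Nup160 at 0.07. Partners of Washc3 had 7 of 12 above 0 (median 0.008), with the retromer gene Vps26a at 0.11 and Washc4 at 0.17. The spliceosomal partners of Snrpf had 7 of 11 above 0 (median 0.014), with Snrpd3 at 0.07 and Snrpa1 at 0.11, and the endosomal partners of Eea1 had 6 of 11 (median 0.004), with Rabep1 at 0.13 and Rab5c at -0.06. Leukotriene genes had 4 of 9 above 0 (median -0.018), with the receptor gene Cysltr1 at 0.27 and Dpep1 at 0.12. Nuclear lamina genes had 5 of 13 above 0 (median -0.018), with Lemd2 at -0.17 and Syne2 at -0.23, and partners of Metap2 had 3 of 5 (median 0.003), with Nmt2 at -0.08 and Metap1d at 0.07. The adjusted p of these named genes was 0.825 to 0.904 (limma).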

How the data were processed

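Total RNA from frozen skeletal muscle was extracted with Trizol, cleaned on RNeasy columns and labelled with biotin, per the labels' protocols. The deposited file is a table of log2 values for 35557 probe sets on 6 arrays. The sources used here do not give its background correction, summarization or normalization. The values span 1.41 to 15.08, array medians 5.98 to 6.04, and no 2 arrays were identical. Raw intensities were not used, so signal over background could not be assessed.

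Of the probe sets, 21789 had a single gene symbol in the platform annotation, 1621 had several and 12147 none, and 21695 were matched to GRCm38.p6 for gene order. The match was by gene identifier, so the position that each probe set targets was not checked. The deposited table names no genome build. Replicate numbers follow deposit order and pair no animals. TG and WT were compared by moderated linear models (limma 3.58.1, R 4.3.3; lmFit, then eBayes; two-sided) with Benjamini-Hochberg adjustment over every probe set. In lists, the probe set of highest mean stands for its gene. The members and lists were chosen with earlier results of these data known. Every member is named, the 6 arrays are given for those whose groups do not overlap, and of each partner list the 2 genes with the smallest p are named. Casp9, Cycs, Gas2l3 and Hal were described further after their values were seen. Steps were tested on simulated data.

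Figures used matplotlib 3.10.9. Alternatives were quantile normalization, a common array median, 1 probe set per gene, probe sets above the median level, an intensity trend, robust moderation, array weights, a hepatocyte covariate and leaving out each array.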

Additional observations from a re-analysis of the deposited data

How the results depend on the processing

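The counts of 12 higher and 8 lower member probe sets were the same under quantile normalization, and under a common array median they were 13 and 8, with Nudt4 added. Among probe sets above the median level, which removes 14 member probe sets, the lower count was 4 and the median difference of the members was 0.059 in place of 0.012. Leaving out 1 array gave 12 to 15 higher and 8 to 12 lower members. These counts could not fall below 12 and 8, since groups without overlap stay so when an array is removed. For the same reason the shares over all probe sets could only stay or rise. In the main setting those shares were 5.04% higher and 6.76% lower. They are not given under the alternatives, so the member counts there have no background beside them. The median difference of the members was 0.002 at the lowest, without TG array 2, and 0.035 at the highest, without WT array 2. No probe set passed in the full table, against 1 with 1 probe set per gene (Casp12, no member). Without single arrays the count was 0 to 1, the 1 call being an unnamed probe set without WT array 2. Partner genes passed in 0 cases under every alternative run. Of all probe sets whose groups did not overlap, 42.7% were higher in TG, against 55.5% with a common array median. Of 215 recomputed differences of members without overlap, 0 changed sign. Leaving out an array or other probe sets could not change the sign. All TG arrays of these members lie on the same side of all WT arrays. No paired analysis was possible because the labels give no replicate numbers that groups share. With 3 arrays per group, precision is limited, and signal over background is unknown.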
